A study of Mus musculus with 9 samples.

Results

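The 9 genes described here encode proteins of blood coagulation and of the plasminogen system that macrophages are known to make: F3, F5, F7, F10, F13a1, Thbd, Tfpi, Plau and Plaur. They were taken by gene symbol from a table of 28998 genes. They were chosen by their place in the pathway and by the measured FPKM and counts of F5 in the 3 groups: F5 was about 10-fold higher with WGFT17 and somewhat lower with JHU083. The level of F5 is therefore given as a description, without a test. The other 8 genes were tested, with the caveat that they too were chosen with earlier results of these libraries known.

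RNA was sequenced from bone marrow macrophages of wild-type C57 mice, grown from monocytes for 7 days in GM-CSF, a cytokine of macrophage growth; the labels also call the cells an adherent line. One group then received JHU083 for 36 h, another received WGFT17 for 36 h, and the third was the Control, with 3 libraries in each group. JHU083 is a prodrug of DON, an antagonist of glutamine. WGFT17 is known here by its code name alone. Doses, the treatment and culture time of the Control cells, and whether the replicates came from separate animals or cultures were not given, so the p-values measure the spread between these libraries only. The macrophage genes Lyz2, Ctss and Cd68 averaged 8990, 1610 and 986 FPKM in JHU083, 9660, 2050 and 1180 FPKM in WGFT17, and 8010, 1460 and 1050 FPKM in Control. FPKM are fragments scaled to transcript length and library size, so levels of different genes can be compared on that scale.

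Coagulation starts when tissue factor, the product of F3, meets factor VII. The pair activates factor X, which with its cofactor factor V turns prothrombin into thrombin. Thrombin makes fibrin, and factor XIII cross-links it. Tissue factor pathway inhibitor and thrombomodulin hold the cascade back. Urokinase, bound to its receptor, activates plasminogen, which dissolves fibrin and helps macrophages move through matrix. Most plasma clotting factors come from the liver, whereas macrophages are a known source of tissue factor, factor XIII-A and urokinase.

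The promoters of 3 of these genes are shown because their RNA differed most between the groups: F5 was higher with WGFT17, and F3 and F13a1 were lower. Each is 300 bases on the coding strand, from 250 before to 50 after a RefSeq start (GRCm38.p6). F5 lies at chr1:164151585-164151884 on the plus strand, F3 at chr3:121723287-121723586 on the plus strand and F13a1 at chr13:37050195-37050494 on the minus strand. Capitals mark matches on either strand to the AP-1 motif TGANTCA, the Sp1 motif GGGCGG, the PU.1 motif GAGGAA and the TATA box TATAAA.
F5: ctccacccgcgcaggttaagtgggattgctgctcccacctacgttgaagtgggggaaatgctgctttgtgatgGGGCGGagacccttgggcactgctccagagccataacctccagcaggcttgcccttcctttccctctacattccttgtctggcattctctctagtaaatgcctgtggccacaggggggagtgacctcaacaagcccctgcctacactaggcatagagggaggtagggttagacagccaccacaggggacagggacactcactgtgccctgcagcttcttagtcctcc
F3: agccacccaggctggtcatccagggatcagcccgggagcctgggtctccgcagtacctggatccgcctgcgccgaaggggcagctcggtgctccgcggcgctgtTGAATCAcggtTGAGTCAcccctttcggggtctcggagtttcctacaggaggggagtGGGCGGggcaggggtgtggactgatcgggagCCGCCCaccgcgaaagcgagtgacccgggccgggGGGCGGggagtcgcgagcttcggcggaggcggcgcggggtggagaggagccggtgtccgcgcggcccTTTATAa
F13a1: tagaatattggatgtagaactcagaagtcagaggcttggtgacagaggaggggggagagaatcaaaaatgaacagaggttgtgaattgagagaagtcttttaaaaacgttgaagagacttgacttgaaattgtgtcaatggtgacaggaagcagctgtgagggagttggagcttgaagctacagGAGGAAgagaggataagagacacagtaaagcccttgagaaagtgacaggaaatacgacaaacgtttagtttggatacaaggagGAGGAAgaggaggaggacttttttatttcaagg
Counted from 0 at the start, F3 held AP-1 letters at -146 and -135, where these letters occurred in 7.81% of 32851 promoters of the same length. It also held Sp1 letters at -89, -58 and -24 (in 35.7% of promoters) and TATA letters on the other strand at 43 (in 13.6%). F5 had Sp1 letters at -177 and none of the other motifs. F13a1 had PU.1 letters at -66 and 17 in the window shown (in 28.3% of promoters). Another RefSeq start of F13a1, at base 37049213, had PU.1 letters at 14, and its window is not shown. The letters TGATGNAA of the joint C/EBP-ATF motif, found in 3.97% of promoters, were not in any of the 9 promoter windows listed for 7 of the 9 genes. The marked motifs do not overlap each other. These are matches of letters and do not show that a factor was bound.

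All 9 genes had a mean of at least 1 FPKM over the 9 libraries, the level asked of a gene to be tested, as did 11798 genes in all. Library totals were 56624220 to 69112134 estimated counts, where about 4 counts stand for 1 read pair. The genes held between 134 counts (F3 in WGFT17) and 10704 counts (Plau in Control). Transcripts of other tissues differed between libraries. The FPKM of 12 heart muscle genes summed to 64.3, 0.8 and 96.1 in JHU083 replicates 1 to 3, to 0.81 to 1.17 in WGFT17 and to 73.7 to 84.5 in Control, so JHU083 replicate 2 stood apart from the other JHU083 libraries in these genes. Over all genes replicate 3 stood apart: its counts differed from those of replicates 1 and 2 by a chi-square per gene of 16.42 and 16.44, against 6.9 between replicates 1 and 2. Without it 3731 genes were called in JHU083 against Control, in place of 2831. For the 11 photoreceptor genes in the table the sums were 3.06 and 3.11 in JHU083 replicates 2 and 1 but 10.9 in replicate 3, against 1.78 to 2.26 in WGFT17 and 9.77 to 11.4 in Control. The 10 marker genes of fibroblasts and stroma, a cell type that also makes clotting and plasminogen proteins, summed to 890 to 1060 FPKM in JHU083, 234 to 246 in WGFT17 and 1370 to 1470 in Control. In RNA from whole cultures, fewer cells of a type and less RNA per cell cannot be told apart.

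**Figure D1:**
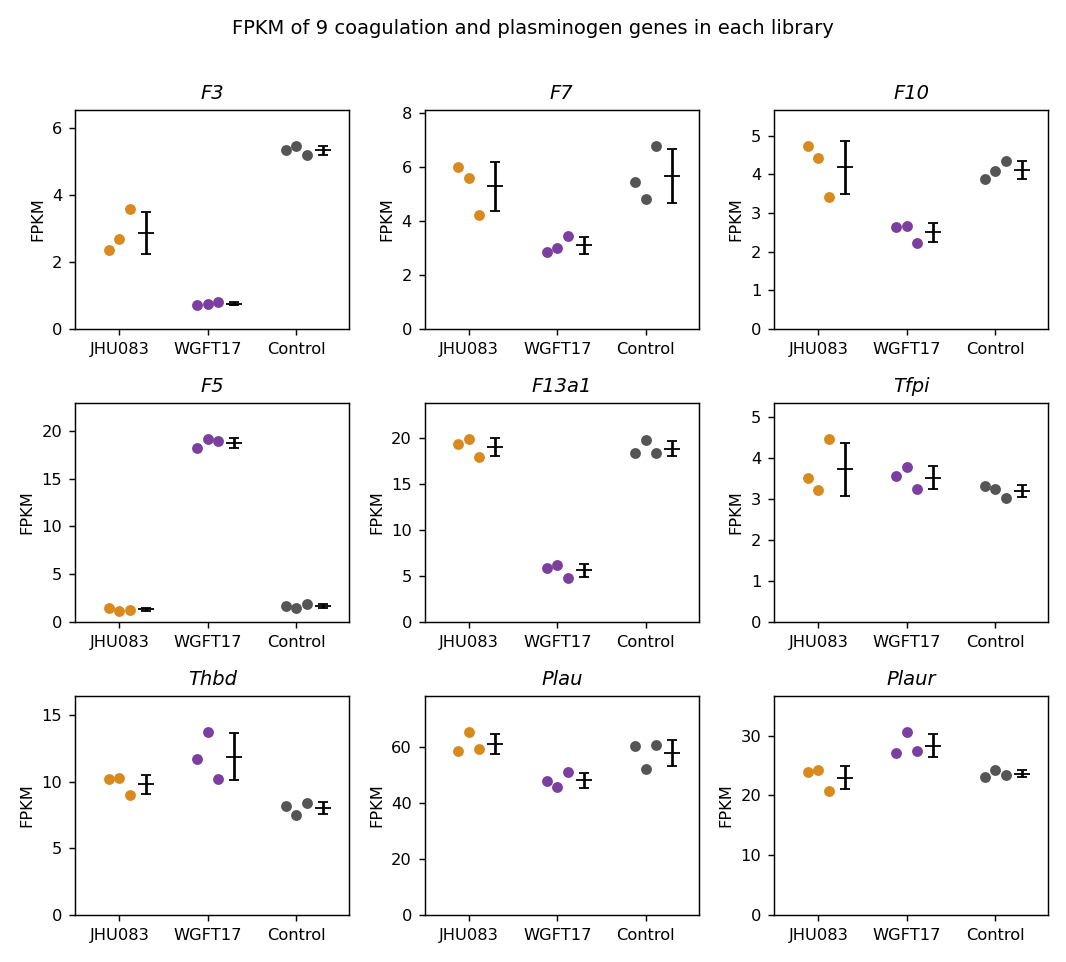
FPKM of the 9 genes (vertical axes, each from 0) in the 3 groups (horizontal axes); points are libraries in replicate order and the black bars give mean ± SD (n = 3). F5 stands at 18.18 to 19.12 FPKM in WGFT17 and below 2 FPKM elsewhere, F3 and F13a1 are lowest in WGFT17, and Tfpi overlaps in all groups.

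F5 encodes factor V, the cofactor of factor X. The gene lies on chromosome 1 from 164151838 to 164220277 on the plus strand (GRCm38), with 1 transcript in the table. Its level was 1.52, 1.19 and 1.31 FPKM in JHU083, 18.18, 19.12 and 18.90 FPKM in WGFT17, and 1.64, 1.48 and 1.88 FPKM in Control. The 3 WGFT17 libraries were thus far above the 6 others, which held F5 at a low level. JHU083 and Control overlapped, since JHU083 replicate 1 lay above Control replicate 2. On the scale of the count model the log2 change was 3.38 (SE 0.11) in WGFT17 against Control, which is 10.4-fold, and 3.79 (SE 0.11) in WGFT17 against JHU083, which is 13.8-fold. With JHU083 it was -0.41 (SE 0.10) against Control, or 1.33-fold lower. Of all 11798 tested genes, 11 had a larger rise in WGFT17 against Control and 5 in WGFT17 against JHU083, while 1114 had a larger fall than F5 in JHU083 against Control.

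Ordered by FPKM, F5 was the third of the 9 genes in WGFT17, after Plau and Plaur, and the last in JHU083 and Control. Relative to F10, which encodes the enzyme that factor V serves, the F5 level was 0.27 to 0.383 times as high in JHU083, 6.91 to 8.51 times in WGFT17 and 0.362 to 0.432 times in Control. A processed pseudogene on the same strand and a long noncoding RNA on the other strand, Gm16548, overlap F5 in the annotation; Gm16548 had at most 0.03 FPKM in JHU083, 0.08 in WGFT17 and 0.03 in Control.

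Of the 6 nearest protein-coding genes of F5 on chromosome 1, the highest in WGFT17 averaged 6.31 FPKM. Selp, the gene of P-selectin, ends 1811 bases before F5 on the same strand and had 0.72 FPKM in JHU083, 0.477 FPKM in WGFT17 and 0.617 FPKM in Control on average. Slc19a2, a thiamine transporter gene 28768 bases after F5, averaged 5.53 FPKM in JHU083, 6.31 FPKM in WGFT17 and 6.24 FPKM in Control. Selp was under the level for testing.

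**Figure D2:**
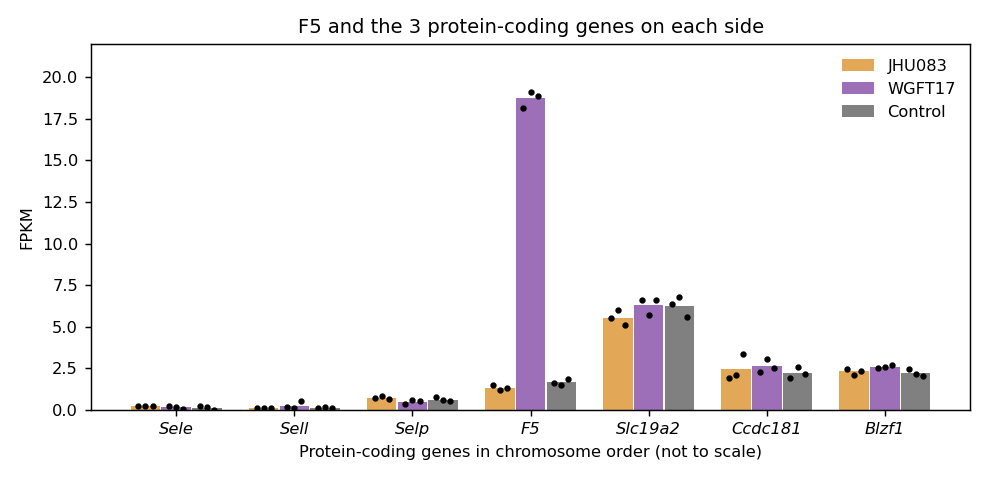
Mean FPKM (vertical axis, bars; points are libraries) of F5 and the 3 protein-coding genes on each side, in chromosome order (horizontal axis), in JHU083, WGFT17 and Control. The bar of F5 in WGFT17 averages 18.73 FPKM, while no bar of the 6 neighbours is above 6.31 FPKM.

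The genes with the pattern most like that of F5 were found by Euclidean distance over the 9 libraries, in log2(FPKM + 0.1) after each gene's mean was subtracted. The nearest was Trib3, a pseudokinase gene, at a distance of 0.68, with 5.89 FPKM in JHU083, 62.1 in WGFT17 and 6.73 in Control. Slc7a11, which encodes the cystine transporter, followed at 0.83 with 0.907, 9.37 and 1.10 FPKM in the same order of groups. Chchd10, Tenm4, Ptgir, Cdsn, Angptl6 and Ddit3 came next, at 0.90 to 1.30. Ptgir, the receptor gene for prostacyclin, had 1.68 FPKM in JHU083, 15.2 in WGFT17 and 1.32 in Control. No other of the 9 genes came near: Thbd was closest to F5 at 4.55 and F3 farthest at 8.22.

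WGFT17 against Control shows how the other 8 genes stood beside F5. The initiator F3 fell most, the fibrin cross-linker F13a1 next, and F7, F10 and Plau fell by less. Thbd rose, while Tfpi and Plaur did not pass the test. In counts, 5 of the 8 fell, 1 rose and 2 did not pass; of all tested genes 58.0% were called in this comparison, 30.0% lower and 28.0% higher, so calls were common among all genes. Without F5, 7 of the 8 had groups that did not overlap in FPKM, as did 73.2% of all tested genes. The median log2 change of the 8 was -0.60, against 0.004 for all tested genes.

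In JHU083 against Control 1 of the 8 was called, F3, which was lower with JHU083. This is 12.5% of the 8, where 24.0% of all tested genes were called, 11.5% higher and 12.5% lower. The higher share of these calls was 47.7%, but 58.7% when libraries were scaled by their totals alone and 72.3% with limma on log2(FPKM + 0.1). Their median log2 change was -0.08, against 0.004 for all. In WGFT17 against JHU083, 5 fell, 1 rose and 2 did not pass, with 44.7% of all tested genes called, 20.4% higher and 24.4% lower. The groups of 6 of the 8 did not overlap in FPKM, as for 53.4% of all tested genes. The median was -0.55 against 0.006. Both comparisons with Control use the same 3 Control libraries, and both WGFT17 comparisons use the same WGFT17 libraries.

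**Figure D3:**
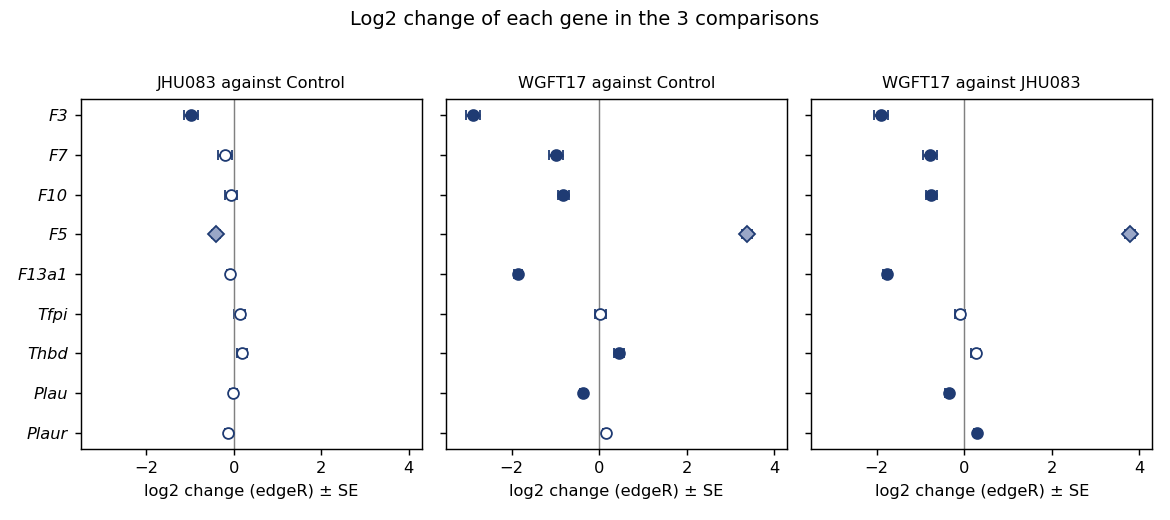
Log2 change with its SE from edgeR (horizontal axes) of the 9 genes (vertical axis) in the 3 comparisons. Filled circles passed an adjusted p of 0.05, open circles did not, and the pale diamond is F5, which was not tested; F3 lies at -0.98, -2.89 and -1.91 from left to right.

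F3 (chromosome 3, 121723537 to 121735048, plus strand) encodes tissue factor. Its level was 2.36, 2.69 and 3.58 FPKM in JHU083, 0.72, 0.76 and 0.82 FPKM in WGFT17, and 5.35, 5.45 and 5.20 FPKM in Control. The 3 groups did not overlap, with WGFT17 lowest, JHU083 between and Control highest. The log2 change was -0.98 (SE 0.15) in JHU083 against Control, or 1.97-fold lower (edgeR adjusted p = 0.0018). It was -2.89 (SE 0.16) in WGFT17 against Control, or 7.44-fold lower (edgeR adjusted p = 5.36e-08). WGFT17 was also 3.77-fold lower than JHU083 (log2 -1.91, SE 0.16, edgeR adjusted p = 1.91e-06). Among all tested genes, 187 had a larger fall in JHU083 and 183 in WGFT17, each against Control. Without JHU083 replicate 3, the highest of its group, the log2 change in JHU083 against Control was -1.17 (edgeR adjusted p = 0.000108), and without replicate 2 it was -0.94 (edgeR adjusted p = 0.00753).

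The fibroblast and stromal genes moved with F3. Col1a1, a collagen gene and the most abundant of them, averaged 546 FPKM in JHU083, 96.5 FPKM in WGFT17 and 866 FPKM in Control. Of the 8 stromal genes tested, 6 fell in JHU083 and 8 in WGFT17, each against Control, where 12.5% and 30.0% of all tested genes fell. The part of stromal cells in the level of F3 was not tested. The genes with the pattern most like that of F3 were Gpx3, a secreted glutathione peroxidase gene, at a distance of 0.54, and Peg10 at 0.57. Gpx3 had 37.3 FPKM in JHU083, 12.7 FPKM in WGFT17 and 64.9 FPKM in Control.

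Tfpi and Thbd encode 2 inhibitors of the cascade. Tfpi, the inhibitor of the complex of tissue factor and factor VII, lies on chromosome 2 from 84432855 to 84476763 on the minus strand. It had 3.50, 3.21 and 4.45 FPKM in JHU083, 3.55, 3.77 and 3.23 FPKM in WGFT17, and 3.32, 3.23 and 3.03 FPKM in Control. All 3 groups overlapped, and JHU083 replicate 3 was the highest library. Its log2 change was 0.13 (SE 0.12) in JHU083 and 0.03 (SE 0.12) in WGFT17 against Control (edgeR adjusted p = 0.463 and 0.834). The level of F3 relative to Tfpi in the same library was 0.674 to 0.838 in JHU083, 0.202 to 0.254 in WGFT17 and 1.61 to 1.72 in Control, so that F3 exceeded Tfpi in the 3 Control libraries and in none of the 6 treated ones.

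Thbd encodes thrombomodulin, which turns thrombin from clotting to the activation of protein C (chromosome 2, 148404466 to 148408188, minus strand). Its level was 10.17, 10.28 and 8.98 FPKM in JHU083, 11.73, 13.72 and 10.18 FPKM in WGFT17, and 8.17, 7.53 and 8.43 FPKM in Control. Every treated library lay above every Control library, and JHU083 and WGFT17 overlapped. It rose 1.37-fold in WGFT17 against Control (log2 0.45, SE 0.11, edgeR adjusted p = 0.00347). In JHU083 against Control the log2 change of 0.19 (SE 0.11) did not pass (edgeR adjusted p = 0.209), though the groups did not overlap in FPKM; groups that did not overlap in this comparison made up 43.7% of all tested genes. WGFT17 against JHU083 did not pass either (log2 0.26, SE 0.11, edgeR adjusted p = 0.0641), but did without WGFT17 replicate 3 (log2 0.37, edgeR adjusted p = 0.0131). Without WGFT17 replicate 2, the highest library, the log2 change of Thbd was 0.14 (edgeR adjusted p = 0.275). Its neighbour Cd93, 28451 bases away on the same strand, had 61.5 FPKM in JHU083, 59.8 FPKM in WGFT17 and 53.8 FPKM in Control.

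F7 and F10 encode the protease that tissue factor binds and the protease that this pair activates. They are neighbours on chromosome 8, F7 from 13026034 to 13035809 and F10 from 13037308 to 13056676, both on the plus strand and 1498 bases apart. F7 had 5.99, 5.61 and 4.24 FPKM in JHU083, 2.85, 2.99 and 3.46 FPKM in WGFT17, and 5.44, 4.81 and 6.76 FPKM in Control. F10 had 4.72, 4.41 and 3.42 FPKM in JHU083, 2.63, 2.67 and 2.22 FPKM in WGFT17, and 3.88, 4.09 and 4.35 FPKM in Control. For both genes the 3 WGFT17 libraries were below the 6 others, JHU083 replicate 3 was the lowest of its group, and JHU083 overlapped Control. F7 fell 1.97-fold in WGFT17 against Control (log2 -0.98, SE 0.16, edgeR adjusted p = 0.000408), and F10 fell 1.76-fold (log2 -0.82, SE 0.13, edgeR adjusted p = 0.000336). Against JHU083, they fell 1.72-fold and 1.68-fold in WGFT17 (edgeR adjusted p = 0.00245 and 0.000806). The log2 changes of F7 and F10 in JHU083 against Control were -0.20 (SE 0.16) and -0.07 (SE 0.13), which did not pass (edgeR adjusted p = 0.399 and 0.734).

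Each was the nearest of the 9 genes to the other, at a distance of 0.52. The level of F7 relative to F10 was 1.24 to 1.27 in JHU083, 1.08 to 1.56 in WGFT17 and 1.18 to 1.55 in Control. Proz, the gene of the related protein Z that follows F10 on the same strand, averaged 0.587 FPKM in JHU083, 0.54 FPKM in WGFT17 and 0.853 FPKM in Control and was not tested.

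The liver is the main source of both factors in plasma, and liver transcripts were present in the libraries. The 15 hepatocyte genes summed to 494, 404 and 534 FPKM in JHU083, 443, 465 and 285 FPKM in WGFT17, and 811, 786 and 817 FPKM in Control. Alb, the albumin gene, averaged 67.5 FPKM in JHU083, 77.6 FPKM in WGFT17 and 240 FPKM in Control. Trf, the transferrin gene, was the highest of the 15, at 298 FPKM in JHU083, 174 FPKM in WGFT17 and 336 FPKM in Control. It made up most of the sum in each JHU083 library. In JHU083 against Control the log2 change of Trf was -0.27 and that of Alb was -1.92, so the sum fell less than Alb. Relative to the Control mean, the hepatocyte sum was 0.613, 0.502 and 0.664 in JHU083 replicates 1 to 3, where F7 was at 1.06, 0.989 and 0.748 and F10 at 1.15, 1.07 and 0.833. In WGFT17 the hepatocyte sum, F7 and F10 were below the Control mean in all 3 libraries. The part of liver transcripts in the levels of F7 and F10 was not tested in either group.

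**Figure D4:**
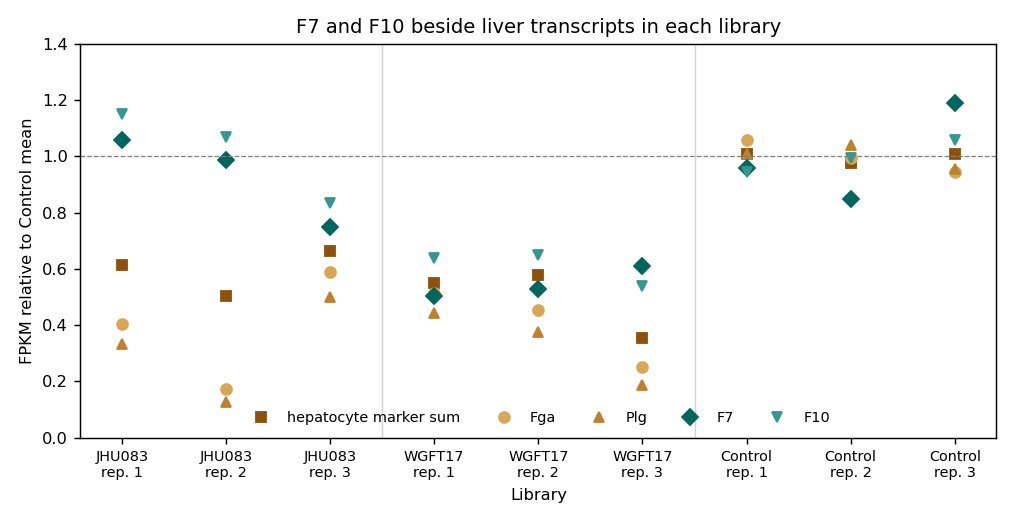
FPKM relative to the Control mean (vertical axis; 1 is the dashed line) of the hepatocyte sum, the liver-made Fga and Plg, F7 and F10 in each of the 9 libraries (horizontal axis). In JHU083 Fga lies at 0.172 to 0.589 and Plg at 0.127 to 0.501, while F7 lies at 0.748 to 1.06 and F10 at 0.833 to 1.15; in WGFT17 all 5 are below 0.7.

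F13a1 encodes the A subunit of factor XIII, which cross-links fibrin and is known as a marker of macrophages and their monocyte precursors (chromosome 13, 36867178 to 37050244, minus strand). It had 19.32, 19.83 and 17.95 FPKM in JHU083, 5.85, 6.21 and 4.81 FPKM in WGFT17, and 18.39, 19.73 and 18.35 FPKM in Control. JHU083 and Control overlapped, and the 3 WGFT17 libraries lay far below both. It fell 3.61-fold in WGFT17 against Control (log2 -1.85, SE 0.09, edgeR adjusted p = 1.35e-08) and 3.42-fold in WGFT17 against JHU083 (log2 -1.77, SE 0.09, edgeR adjusted p = 2.38e-08). In JHU083 against Control the log2 change was -0.08 (SE 0.08, edgeR adjusted p = 0.525). Larger falls in WGFT17 against Control were found for 508 of all tested genes.

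Markers of monocytes were lower too. The 8 monocyte genes summed to 40.6 to 63.3 FPKM in JHU083, 24.8 to 31.5 FPKM in WGFT17 and 94.0 to 102 FPKM in Control. Of them 5 of 5 tested fell in each treated group against Control, where 12.5% of all tested genes fell with JHU083 and 30.0% with WGFT17. Most of the sum was Hp, at 32.6 FPKM in JHU083, 19.5 FPKM in WGFT17 and 68.7 FPKM in Control. Within its group Hp was lowest in JHU083 replicate 2 and WGFT17 replicate 3, as was the hepatocyte sum. The source of Hp was not tested. In JHU083 against Control Hp fell 2.25-fold, Chil3 3.23-fold and Vcan 1.22-fold. In JHU083 against Control the monocyte sum, which was mostly Hp, was lower, and F13a1 had no called change. The part of monocytes in the level of F13a1 was not tested. As a sum, the 8 dendritic cell genes had the order of F13a1. This sum was 35.0 to 43.9 FPKM in JHU083, 8.96 to 10.2 FPKM in WGFT17 and 33.1 to 43.6 FPKM in Control. Most of this was Itgax, an integrin gene that macrophages also express, at 36.8 FPKM in JHU083, 8.01 FPKM in WGFT17 and 37.7 FPKM in Control, and the only one of the 8 high enough to test. Its log2 change was -2.34 in WGFT17 against Control (edgeR adjusted p = 2.93e-08). The next highest did not share this fall. Batf3 averaged 0.753 FPKM in JHU083, 0.68 FPKM in WGFT17 and 0.693 FPKM in Control, with overlapping groups. Ccr7 averaged 0.567, 0.693 and 0.0733 FPKM in the same order and was lowest in Control. The part of dendritic cells in the level of F13a1 was not tested. Platelets also carry factor XIII-A. Their 11 marker genes summed to 292 to 319 FPKM in JHU083, 206 to 225 FPKM in WGFT17 and 273 to 307 FPKM in Control, most of it from Pf4, at 296, 212 and 273 FPKM. The nearest gene in pattern to F13a1 was Ly6a at 0.22, with 38.3 FPKM in JHU083, 12.6 FPKM in WGFT17 and 40.7 FPKM in Control.

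Plau and Plaur encode urokinase, which activates plasminogen, and its receptor on the cell surface. They were the most abundant of the 9 genes in every group. Plau (chromosome 14, 20836660 to 20843385, plus strand) had 58.47, 65.19 and 59.32 FPKM in JHU083, 47.78, 45.46 and 50.88 FPKM in WGFT17, and 60.28, 52.21 and 60.45 FPKM in Control. The WGFT17 libraries were below all others by a small margin. It fell 1.29-fold in WGFT17 against Control (log2 -0.37, SE 0.07, edgeR adjusted p = 0.00105) and 1.28-fold against JHU083 (edgeR adjusted p = 0.00174), with a log2 change of -0.01 (SE 0.07) in JHU083 against Control (edgeR adjusted p = 0.911).

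Plaur (chromosome 7, 24462484 to 24475968, plus strand) had 23.94, 24.19 and 20.73 FPKM in JHU083, 27.08, 30.59 and 27.39 FPKM in WGFT17, and 23.13, 24.25 and 23.42 FPKM in Control. The WGFT17 libraries were above all others, whereas JHU083 and Control overlapped. It rose 1.22-fold in WGFT17 against JHU083 (log2 0.29, SE 0.07, edgeR adjusted p = 0.00556). In WGFT17 against Control the log2 change of 0.16 (SE 0.07) did not pass (edgeR adjusted p = 0.0764), though it did under 5 of 20 other ways to process the data, among them leaving out JHU083 replicate 3 (edgeR adjusted p = 0.0227). Without WGFT17 replicate 2, the highest library, this change was 0.09 (edgeR adjusted p = 0.297). The change in JHU083 against Control was -0.13 (SE 0.07, edgeR adjusted p = 0.183).

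The rest of the plasminogen system was read from a list of 17 further genes, all of them tested. In WGFT17 against Control 14 fell, 2 rose and 1 did not pass, with a median log2 change of -1.04; of all tested genes 30.0% fell and 28.0% rose. Plg, Hrg, Vtn, Serpinf2 and Cpb2 of this list encode plasma proteins made in the liver, and the hepatocyte sums given above were lower in the same libraries; their part was not tested.

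Plat, the gene of the other plasminogen activator (tPA), had 3.19, 3.24 and 2.96 FPKM in JHU083, 0.24, 0.24 and 0.23 FPKM in WGFT17, and 3.59, 3.69 and 3.74 FPKM in Control. The groups did not overlap. It fell 16.7-fold in WGFT17 against Control (log2 -4.06, SE 0.09, edgeR adjusted p = 9.83e-11) and 1.25-fold in JHU083 (edgeR adjusted p = 0.014). Serpine2 and Serpinb2, inhibitors of the same proteases, fell by 1.35 and 1.01 on the log2 scale in WGFT17 (edgeR adjusted p = 1.33e-09 and 0.00019). Anxa2 and S100a10, whose products form a plasminogen receptor, fell by 0.84 and 1.04 (edgeR adjusted p = 7.26e-07 and 6.75e-08), and Mmp9, a matrix protease gene, fell by 2.16 (edgeR adjusted p = 2.23e-07). The 2 that rose were Lrp1, a receptor that clears protease complexes, by 0.31, and Plgrkt, another plasminogen receptor, by 0.29 (edgeR adjusted p = 0.00677 and 0.0153).

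Of the 17 genes, 10 fell and 0 rose in JHU083 against Control, and 7 did not pass; the median log2 change was -0.33. Of all tested genes 12.5% fell and 11.5% rose in this comparison. The liver-made Plg, Hrg, Vtn and Serpinf2 were among those that fell, by 1.24 to 1.73 on the log2 scale. The hepatocyte sums were lower in JHU083 too, and their part was not tested. Anxa2 fell by 0.27 and S100a10 by 0.44 on the log2 scale (edgeR adjusted p = 0.0107 and 0.00117). In WGFT17 against JHU083 8 fell, 2 rose and 7 did not pass, where 24.4% of all tested genes fell and 20.4% rose. Plat is known in endothelium and fibroblasts, and the stromal sums given above moved with it; 10 endothelial genes summed to 9.51 to 12.2 FPKM in JHU083, 3.51 to 5.03 FPKM in WGFT17 and 8.83 to 10.1 FPKM in Control. The part of these cells was not tested.

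**Figure D5:**
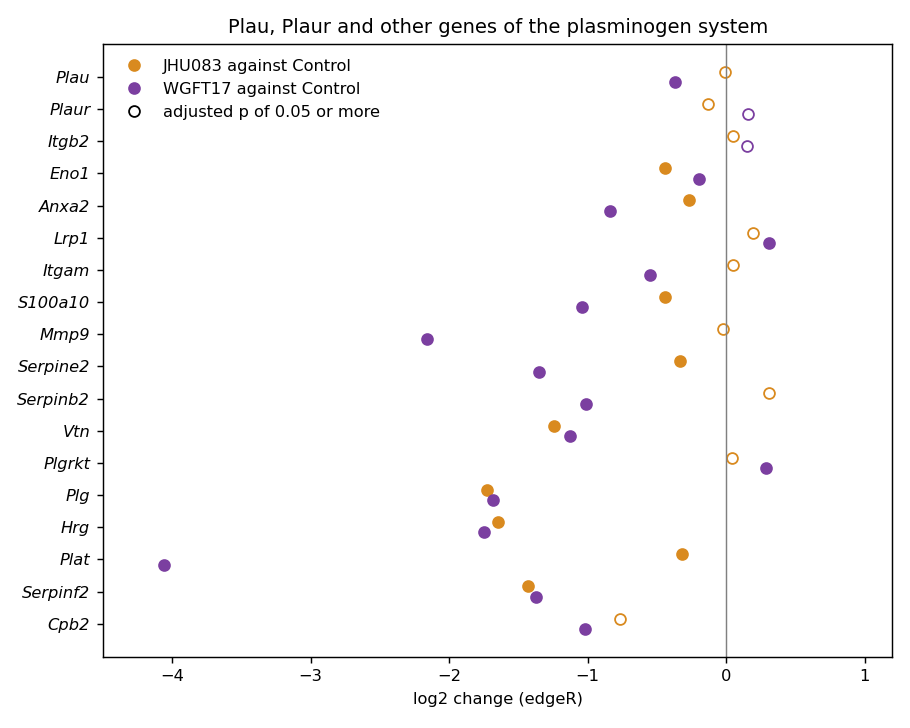
Log2 change from edgeR (horizontal axis) of Plau, Plaur and other genes of the plasminogen list (vertical axis, in order of Control level below the first 2) in JHU083 and in WGFT17, each against Control. Open circles did not pass; Of the genes drawn, Plat at -4.06 and Mmp9 at -2.16 lie farthest left in WGFT17.

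The other coagulation genes fell into those of plasma proteins made in the liver and the rest. This division was made after values were seen. Of 22 liver-made genes 14 were tested. Against Control 12 fell in JHU083 and 13 in WGFT17, with none higher, and in WGFT17 against JHU083 1 fell and 13 did not pass. Serpinc1 and Serpind1, counted among the falls in both groups, reached the level for testing only through Control. They averaged 1.46 and 1.77 FPKM there, 0.717 and 0.633 FPKM in JHU083, and 0.93 and 0.693 FPKM in WGFT17. Among all tested genes 12.5% fell in JHU083 and 30.0% in WGFT17 against Control, and 44.7% were called in WGFT17 against JHU083. Fga, a fibrinogen chain gene, had 16.51, 7.01 and 24.06 FPKM in JHU083, 21.02, 18.59 and 10.30 FPKM in WGFT17, and 43.32, 40.65 and 38.49 FPKM in Control. It was highest in Control and varied widely within the treated groups, and its log2 change was -1.46 (SE 0.36) in JHU083 and -1.40 (SE 0.36) in WGFT17 (edgeR adjusted p = 0.0156 and 0.00628). Plg, the plasminogen gene itself, fell by 1.73 in JHU083 and by 1.68 in WGFT17 on the log2 scale (edgeR adjusted p = 0.0125 and 0.00446). The hepatocyte sums given above were lower in the same libraries; their part was not tested.

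Of the 38 other genes 32 were tested. Here 1 rose and 9 fell in JHU083, and 8 rose and 17 fell in WGFT17, against Control, with median log2 changes of -0.02 and -0.21. The shares called were 31.2% and 78.1%, where 24.0% and 58.0% of all tested genes were called. The split by direction moved with the scaling: over all 46 tested genes of these lists, liver-made ones included, 1 of 22 calls in JHU083 was higher, but 6 of 23 with limma on log2(FPKM + 0.1), and in WGFT17 8 of 38 against 11 of 35. Vwf, the gene of von Willebrand factor, averaged 3.12 ± 0.268 FPKM in JHU083, 9.89 ± 0.548 FPKM in WGFT17 and 3.12 ± 0.345 FPKM in Control (SD, n = 3 each). It was 2.93-fold higher in WGFT17 than in Control (log2 1.55, SE 0.08, edgeR adjusted p = 4.56e-08), while the endothelial genes given above, Cdh5 and Pecam1 among them, were lower there: Cdh5 averaged 2.91 FPKM in JHU083, 1.06 FPKM in WGFT17 and 2.35 FPKM in Control.

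In the protein C pathway, which thrombomodulin starts, the receptor gene Procr had 4.99, 5.86 and 5.24 FPKM in JHU083, 13.76, 14.59 and 14.31 FPKM in WGFT17, and 7.73, 5.67 and 6.34 FPKM in Control. It rose 2.00-fold in WGFT17 against Control (log2 1.00, SE 0.11, edgeR adjusted p = 2.19e-05) and fell 1.31-fold in JHU083 (edgeR adjusted p = 0.0328), where the groups overlapped in FPKM. Pros1, the gene of the cofactor protein S, went the other way in WGFT17 and fell by 0.75 on the log2 scale (edgeR adjusted p = 2.4e-07); in JHU083 its log2 change was 0.11 (edgeR adjusted p = 0.135). Gas6, related to protein S, fell by 0.62 in WGFT17 (edgeR adjusted p = 8.62e-05).

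Factors VII and X need vitamin K for their maturation, and factor V needs a pair of carriers to leave the endoplasmic reticulum. Of the 7 genes of these steps 2 rose, 3 fell and 2 did not pass in WGFT17 against Control, and 1 fell in JHU083. This is 71.4% and 14.3% of the 7, near the 58.0% and 24.0% called among all tested genes. Of the vitamin K enzymes, Vkorc1 and Ggcx fell by 0.85 and 0.57 on the log2 scale in WGFT17 (edgeR adjusted p = 2.95e-05 and 5.07e-05). Aifm2, another reductase of vitamin K, rose by 0.61 (edgeR adjusted p = 4.05e-05), and Vkorc1l1 had a log2 change of -0.02 (edgeR adjusted p = 0.784). Mcfd2, a carrier of factor V, rose by 0.44 (edgeR adjusted p = 7.35e-05), with 67.6 FPKM in JHU083, 90.6 FPKM in WGFT17 and 62.0 FPKM in Control, whereas for its partner Lman1 the log2 change was -0.05 (edgeR adjusted p = 0.379). Vkorc1 was among the 3 genes nearest to F10 in pattern, at a distance of 0.22.

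Clotting complexes form on exposed phosphatidylserine. Of 7 genes of its exposure, 2 rose, 1 fell and 4 did not pass in WGFT17 against Control, and 1 rose, 1 fell and 5 did not pass in JHU083. These shares, 42.9% and 28.6%, lay near those of all tested genes, 58.0% and 24.0%. The scramblase gene Ano6 had 20.6 FPKM in JHU083, 19.6 FPKM in WGFT17 and 18.5 FPKM in Control, with edgeR adjusted p = 0.312 in JHU083 and 0.655 in WGFT17. Of the 4 protease receptors only F2r, the thrombin receptor, was high enough to test; it fell by 0.52 on the log2 scale in WGFT17 (edgeR adjusted p = 0.00995), with 3.35 FPKM in JHU083, 2.28 FPKM in WGFT17 and 3.04 FPKM in Control.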

How the data were processed

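Stranded poly(A) libraries were sequenced as read pairs of 150 bases, per the labels' protocols. Per the submitters' processing notes the tools were edgeR, DESeq2, StringTie 2.1.6, HISAT2 2.2.1 and cutadapt 1.9, and the build mm9, with no roles or settings given; whether counting used strand is not given in the sources used here. The deposited table holds FPKM made by the authors and, per the file headers, a count for each gene and library. These deposited expected counts are whole numbers, about 4 for each read pair; they were used without rounding. Of 28926 genes matched by ID to GENCODE M21 on GRCm38, 25194 (87.1%) have the same coordinates, among them 8 of the 9 genes here (for Tfpi the end differs). Columns were assigned by the labels' descriptions and titles.

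Genes with a mean of at least 1 FPKM were tested (11798) with edgeR 4.0.16 quasi-likelihood under R 4.3.3, with TMM factors, all 9 libraries in 1 fit, a two-sided test and Benjamini-Hochberg adjustment over all tested genes; a gene was called at an adjusted p under 0.05. Log2 changes and SEs come from this fit, and means and SDs from FPKM. Alternatives used limma 3.58.1 on log2(FPKM + 1) and log2(FPKM + 0.1), DESeq2 1.42.0, other scalings and filters, and fewer libraries. The method was tested on simulated data. The genes and lists were chosen with earlier results of these data known. Named genes are the 9, and from each coagulation list those of highest level or smallest adjusted p, the 3 highest of each marker list and the 8 genes most like F5; the text gives part of them, and Plgrkt, Hrg, Vtn, Serpinf2, Cpb2, Vkorc1l1, Serpinb2, Plg, Proz, Cd93, Selp, Slc19a2, Gm16548, Gpx3, Peg10, Ly6a, Gata6, Vsig4 and Alox15 were named outside this rule after their values were seen. Values of 1 gene of the plasminogen list, which the counts include, are not reported here. Intervals and errors cover counting and library spread only.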

Additional observations from a re-analysis of the deposited data

How the results depend on the processing

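The log2 changes of the 8 tested genes were computed in 468 combinations of comparison and alternative. In 461 the direction or lack of a call was as reported, in 7 a gene that had not passed did pass, and in 0 a call was lost or turned round. The 7 concern Plaur in WGFT17 against Control (adjusted p = 0.0106 to 0.297 over 20 alternatives; passing with library totals, limma, the 2 groups alone and without JHU083 replicate 3) and Thbd in WGFT17 against JHU083 (0.0131 to 0.275, passing in DESeq2 and without WGFT17 replicate 3). For F5 the pseudocount mattered: with limma on log2(FPKM + 1) its log2 change was -0.19 in JHU083 and 2.89 in WGFT17 against Control, and 3.08 in WGFT17 against JHU083. A minimum of 5 FPKM removed 4 of the 9 genes. In JHU083 against Control, WGFT17 against Control and WGFT17 against JHU083, 0, 3 and 3 were then called. It also left fewer genes to test, so the counts below are of smaller sets. Of 32 other coagulation genes tested, 13 were called in JHU083 against Control (22 of 46 as reported). Of 6807 genes tested, 4151 and 3305 were called in the WGFT17 comparisons with Control and JHU083 (6837 and 5277 of 11798 as reported). In JHU083 against Control, 2831 genes were called, and 1534 to 3731 when 1 library was left out (1534 without Control replicate 2, 1568 without Control replicate 3). The share of higher calls there was 47.7%, but 58.7% with library totals alone and 72.3% with limma on log2(FPKM + 0.1); in WGFT17 against Control it was 48.3%, and 60.9% with that limma fit. It moved the median of all genes by 0.09 and 0.11 on the log2 scale in these comparisons. The causes were not tested. Same-numbered libraries did not vary together (r = -0.117 to 0.051, not every library being nearest to its own number), and with the replicate number as a block 2330, 6530 and 4907 genes were called in the 3 comparisons, in the order above, with no change in the calls of the 8 genes. The lowest counts of the 9 genes, 134 to 147 per library, were those of F3 in WGFT17.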

Other observations

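Factor V is also known from mouse macrophages of the peritoneal cavity. Of 10 marker genes of large peritoneal macrophages, 4 had a mean of at least 1 FPKM, and the defining factor Gata6 was at 0.08 to 0.12 FPKM in JHU083, 0.03 to 0.08 in WGFT17 and 0.17 to 0.21 in Control. Cd5l had 122.67, 120.39 and 116.31 FPKM in JHU083, 232.61, 209.31 and 259.88 FPKM in WGFT17, and 97.38, 109.87 and 86.80 FPKM in Control; it rose by 1.15 on the log2 scale in WGFT17 against Control (edgeR adjusted p = 8.14e-07). Vsig4 rose by 1.58 and Prg4 by 0.42, while Ltbp1 fell by 2.05 (edgeR adjusted p = 9.05e-05, 0.0468 and 4.56e-09). Alox15 had at most 0.09 FPKM in any library. The 4 tested markers thus moved in both directions in WGFT17.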
